A study of Mus musculus with 4 samples.

Results

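Pattern recognition receptors are the proteins with which a macrophage detects microbes, and their adaptors carry the signal on to transcription. Occupancy of RBPJ was examined at 37 genes of this system, chosen by name as genes of Toll-like, NOD-like, RIG-I-like and lectin sensing, among 21756 genes of the mouse annotation. They comprised 21 sensors, 2 co-receptors and 14 adaptors, kinases and ubiquitin ligases. All 37 symbols were found in the GENCODE M21 annotation. RBPJ was profiled by HT-ChIPmentation, in which chromatin is immunoprecipitated and the DNA is tagged by a transposase while still on the beads. The cells were alveolar macrophages (AMs) of wild-type (WT) mice, taken by bronchoalveolar lavage and purified by sorting, with no further treatment or allele named in the labels. The methods of the study give C57BL/6J mice aged 9 wk. The 4 samples were 2 RBPJ libraries, made with an anti-RBPJ antibody and here called replicates 1 and 2, and 2 inputs without antibody, which enter only through the peak calling. The labels do not say whether the libraries came from separate animals or how many mice were pooled, and no gene expression was measured in these samples.

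RBPJ is the DNA-binding factor of Notch signaling. Without Notch it sits at DNA with corepressors, and the Notch intracellular domain converts it into an activator. Toll-like receptors (TLRs) signal from the cell surface or from endosomes, mostly through MyD88 and the IRAK kinases to TRAF6 or through TRIF to TRAF3. NOD-like receptors and AIM2 act in the cytosol and either recruit RIPK2 or build inflammasomes with ASC. RIG-I-like receptors detect viral RNA and signal through MAVS, and several C-type lectins detect fungal and mycobacterial glycans and signal through SYK and CARD9. AMs take part in clearing pathogens from the airways, and which of these routes they use was not measured here.

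Each value below is a peak as the authors called it, and its height is the deposited fold enrichment over the local background of the input. Replicate 1 had 106228 peaks with a median fold of 4.06, and replicate 2 had 47224 with a median fold of 4.35. Merged stretches that held at least 1 peak of each library are called consensus regions, of which there were 25454. A promoter is the sequence 1 kb either side of a transcription start (TSS). A consensus region was assigned to a gene when it overlapped a promoter or the gene body, or when the gene had the nearest TSS, and 168 were assigned to the listed genes, none to more than 1 of them. The fold of a region is the highest in each library within it, and the lower of both is called the lower fold. The strongest or highest region of a gene is the one with the highest lower fold. The summits of both libraries lay within 100 bp of each other in 15 of the 31 strongest regions (48.4%), beside 52.3% of all consensus regions. A shared region is thus not always a shared summit. No comparison here was tested, since the list is one choice of genes, the genes are not replicates, and there is no second condition.

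The sequences at 8 summits are given first, because the regions of the listed genes differed in which known motifs they held. Of these, 7 are the strongest regions of their genes. Each is 201 bases of GRCm38 (RefSeq, the assembly that mm10 names) centered on the summit in whichever library had the higher fold, written 5′ to 3′ on the strand of the gene. Capitals mark matches on either strand to 6 motifs: TGGGAA, the core that RBPJ binds; the long RBPJ site, which is that core with CG or TG before it and A or C after it; GAGGAAGT, a site of the macrophage factor PU.1; TGANTCA, bound by AP-1; GAAANNGAA, bound by interferon regulatory factors; and an NF-kB site. Every match to the long site also holds the core. The windows of Tlr4, Tlr2, Clec4d and Ripk2 hold the core, that of Syk the core and an NF-kB site, that of Nod1 only a match for another factor, and that of Aim2 none. The last one, far upstream of Tlr2, is a low region (folds of 4.82 and 3.68), shown because it is the only one of the 168 with the long RBPJ site.
Tlr4 intron (chr4:66852105-66852305, plus strand): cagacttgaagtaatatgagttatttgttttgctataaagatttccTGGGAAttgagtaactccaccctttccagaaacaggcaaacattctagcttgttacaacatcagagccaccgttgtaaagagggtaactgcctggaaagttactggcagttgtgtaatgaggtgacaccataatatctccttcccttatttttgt
Tlr2 gene body (chr3:83839476-83839676, minus strand): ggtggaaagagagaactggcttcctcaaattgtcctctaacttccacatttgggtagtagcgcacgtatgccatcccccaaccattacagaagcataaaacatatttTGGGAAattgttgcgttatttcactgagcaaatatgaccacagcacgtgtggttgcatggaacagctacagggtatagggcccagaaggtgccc
Clec4d upstream (chr6:123260364-123260564, plus strand): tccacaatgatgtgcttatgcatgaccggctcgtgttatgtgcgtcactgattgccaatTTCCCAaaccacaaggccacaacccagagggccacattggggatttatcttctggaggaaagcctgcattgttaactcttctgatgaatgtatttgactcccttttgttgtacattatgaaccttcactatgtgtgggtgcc
Ripk2 intron (chr4:16159498-16159698, minus strand): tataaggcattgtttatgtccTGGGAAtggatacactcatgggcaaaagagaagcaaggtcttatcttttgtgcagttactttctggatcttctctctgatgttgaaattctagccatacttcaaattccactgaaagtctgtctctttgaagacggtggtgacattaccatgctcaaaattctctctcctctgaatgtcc
Syk intron (chr13:52636178-52636378, plus strand): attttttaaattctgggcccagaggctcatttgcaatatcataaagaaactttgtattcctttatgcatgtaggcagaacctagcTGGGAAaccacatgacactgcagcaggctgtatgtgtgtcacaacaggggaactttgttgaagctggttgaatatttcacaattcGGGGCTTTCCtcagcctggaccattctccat
Nod1 intron (chr6:54954714-54954914, minus strand): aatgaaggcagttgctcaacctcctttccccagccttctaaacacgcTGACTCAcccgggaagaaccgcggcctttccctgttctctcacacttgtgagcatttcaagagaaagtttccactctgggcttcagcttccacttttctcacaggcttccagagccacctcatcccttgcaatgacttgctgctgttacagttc
Aim2 intron (chr1:173426474-173426674, plus strand): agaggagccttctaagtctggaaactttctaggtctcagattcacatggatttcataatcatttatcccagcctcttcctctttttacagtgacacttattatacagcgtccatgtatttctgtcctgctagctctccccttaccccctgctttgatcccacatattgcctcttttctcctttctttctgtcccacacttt
Tlr2 far upstream (chr3:83855692-83855892, minus strand): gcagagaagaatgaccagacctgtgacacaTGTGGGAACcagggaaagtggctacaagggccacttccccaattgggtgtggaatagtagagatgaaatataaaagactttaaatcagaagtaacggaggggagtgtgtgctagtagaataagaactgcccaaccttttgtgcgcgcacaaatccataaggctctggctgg

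Most of the listed genes had RBPJ peaks at their promoters. In replicate 1, 33 of the 37 had a promoter peak (89.2%), beside 46.1% of all genes. In replicate 2 the count was 27 (73.0%), beside 37.5% of all genes. The same 27 had one in both libraries, where the share over all genes was 35.8%. A consensus region lay at the promoter of 26 (70.3%, beside 33.7% of all genes). The difference of 1 gene is Ddx58, whose peaks in the 2 libraries lay on either side of its TSS and did not overlap. A further 6 genes had a promoter peak in replicate 1 only, and none had one in replicate 2 only. Neither library had a promoter peak at Tlr1, Tlr11, Tlr12 or Aim2.

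**Figure D1:**
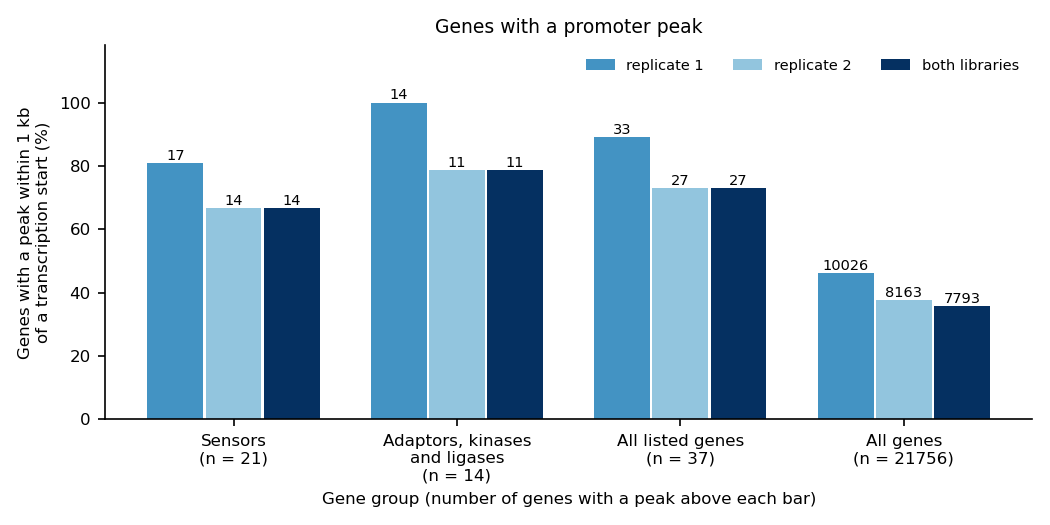
Percentage of genes with an RBPJ peak within 1 kb of a TSS (vertical axis) in replicate 1, in replicate 2 and in both, for the 21 sensors, the 14 adaptors, kinases and ligases, all 37 listed genes (2 co-receptors included) and all 21756 genes; numbers above the bars count genes. All 14 adaptors had a peak in replicate 1 and 11 in both libraries, and 14 of the 21 sensors had one in both, beside 35.8% of all genes.

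Consensus regions were also counted over the gene bodies. One lay in the gene body of 29 (78.4%, beside 37.4% of all genes), regions at the TSS included. Outside the promoters of the gene, 20 had a region in the body (54.1%, beside 17.0% of all genes). By distance, 31 had the TSS nearest to a consensus region (83.8%, beside 40.5%). By any of the 3 assignments 31 of the 37 had a region (83.8%, beside 45.0%). The median number of regions per gene was 3 over the listed genes and 0 over all genes. Among genes with at least 1 region, the medians were 3 and 2, at median gene lengths of 23.2 and 24.0 kb. Of the listed genes, 14 had 5 regions or more (37.8%, beside 7.44% of all genes) and 6 had 10 or more (16.2%, beside 2.31%). Of the 168 regions, 22.6% overlapped a promoter, 53.0% lay elsewhere in a gene body and 24.4% lay between genes. For all 25454 consensus regions these shares were 34.8%, 37.6% and 27.5%.

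The height of the regions varied widely among the genes. The lower fold of the strongest region of a gene ranged from 4.02 at Tlr1 to 15.4 at Nlrp3. Its median was 7.70 over the 31 genes, beside 5.84 over the 9801 genes of the whole annotation with a region. A strongest region is a maximum, and the listed genes had more regions each. Taken region by region, the median lower fold was 4.53 over the 168, beside 4.69 over all 25454 consensus regions. At 6 genes the lower fold of the strongest region was at least 10, namely Nlrp3, Aim2, Tlr4, Irak2, Clec7a and Tlr2. Clec7a, the lowest of these at 10.3, stood at percentile 93.0 among the 9801 genes with a region. The share of all genes that reached 10 was not counted. Replicate 1 had the higher fold at 22 of the 31 strongest regions, and at 72.2% of all consensus regions. In 17 of the 31 genes the strongest region was the promoter region itself, and in 10 its summit lay more than 10 kb from any TSS of the gene. Both counts are given for the listed genes only, with no share over all genes beside them.

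**Figure D2:**
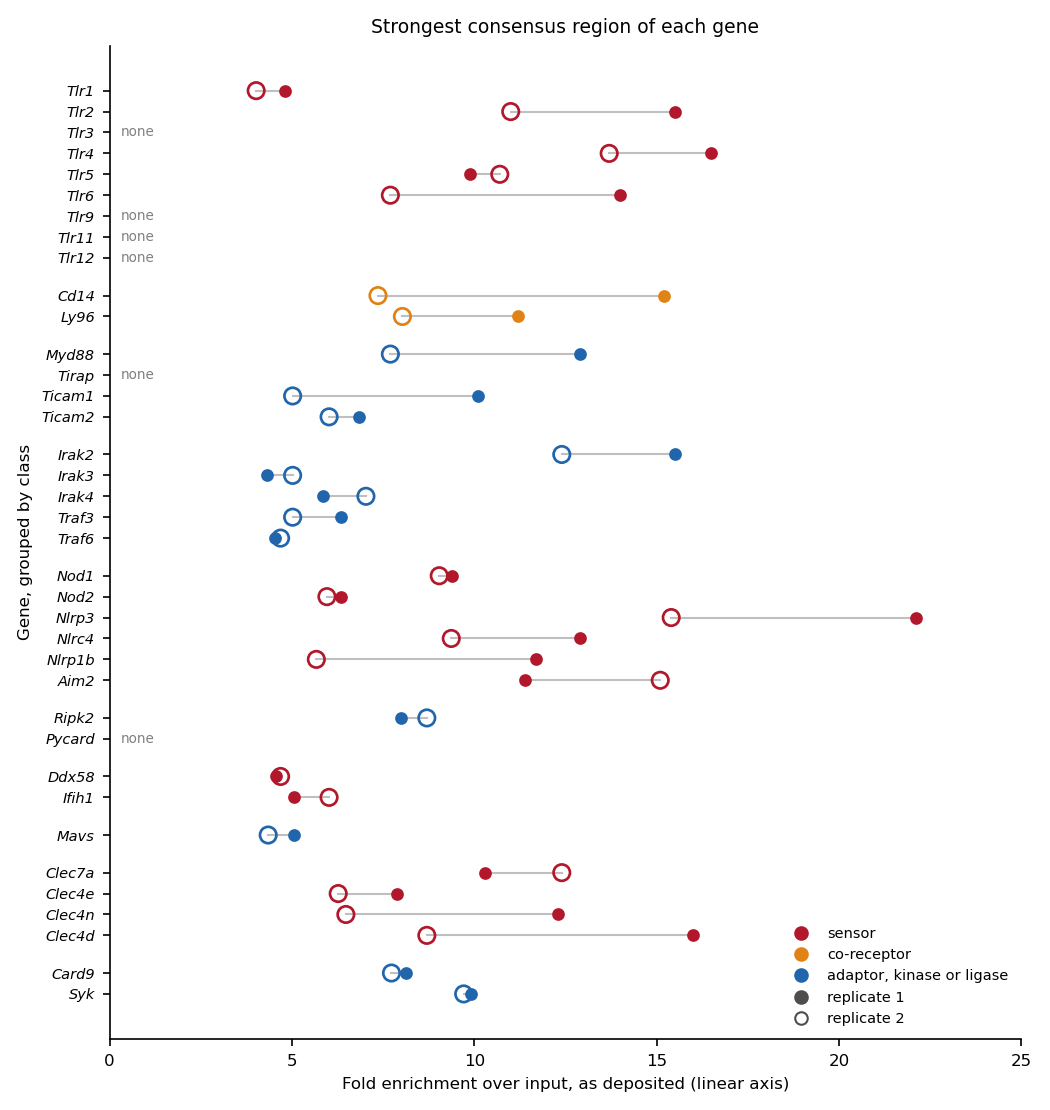
Deposited fold enrichment over input (horizontal axis, linear) at the strongest consensus region of each of the 37 genes, grouped by class, with replicate 1 as filled and replicate 2 as open circles joined by a line. Nlrp3 stands furthest right at 22.1 and 15.4, the strongest regions of Irak3, Traf6, Ddx58, Ifih1 and Mavs lie near 5, and 6 genes have no region.

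The Toll-like receptors split into 4 with a promoter peak in both libraries (Tlr2, Tlr4, Tlr5 and Tlr6) and 5 without. Tlr2 detects bacterial lipopeptides. Its region chr3:83837870-83843317 spanned the whole start of the gene and had folds of 15.5 in replicate 1 and 11.0 in replicate 2, with summits 421 bp apart inside the gene. A second region upstream, with its summit 3454 bp before the TSS, had folds of 14.6 and 9.37. Tlr2 had 11 regions in all, 7 of them upstream of the gene, and no other protein-coding TSS was nearer to any of them.

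Tlr4, the receptor for lipopolysaccharide, also had 11 regions, 9 of them in introns of the gene as annotated, which spans 103 kb. The highest lay 24592 bp inside the gene at chr4:66850953-66853050, with folds of 16.5 and 13.7 and summits 7 bp apart. The promoter region of Tlr4 was lower, at 11.4 and 8.70, with its summit 66 bp before the TSS. A further intronic region 29613 bp from the TSS had folds of 11.2 and 6.69.

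Tlr5, the flagellin receptor, had 10 regions with another layout. Its promoter peaks were low, at 4.57 in replicate 1 and 4.62 in replicate 2. The highest region lay 5130 bp inside the gene at chr1:182958837-182960557, with folds of 9.89 and 10.7, but with summits 625 bp apart. Tlr6, a partner of TLR2, had a single region, which covered the promoter at chr5:64959149-64962535 with folds of 14.0 and 7.70 and summits 223 bp apart. Tlr1, the other partner of TLR2, had no promoter peak and 1 low region far downstream, 48384 bp from its TSS, with folds of 4.82 and 4.02.

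Tlr3 and Tlr9, the listed receptors for nucleic acids, and Tlr11 and Tlr12, those for profilin, were low or without peaks. Tlr3, the endosomal receptor for double-stranded RNA, had 1 promoter peak in replicate 1 with a fold of 3.60, and the nearest peak of replicate 2 lay 10496 bp from the TSS. Tlr9, the receptor for CpG DNA, had 1 peak in replicate 1 with a fold of 2.79 and a −log10 q of 1.63, where the lowest in that list was 1.34. Neither gene had a consensus region. Tlr11 and Tlr12, which detect profilin, had no peak within 1 kb in either library, and the nearest consensus region lay 424909 bp from Tlr11 and 8153 bp from Tlr12. Other endosomal receptors for nucleic acids, which are not on the list, were higher. Tlr7 had promoter peaks of 7.10 and 4.02, and its strongest region had folds of 9.39 and 5.69. Tlr8 had folds of 9.39 and 4.02 at its promoter region, and Tlr13, with a promoter peak in replicate 1 only, had a region with folds of 9.68 and 6.36.

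Both co-receptors of TLR4 had a promoter peak in both libraries. Cd14, which hands lipopolysaccharide to the receptor, had a region 6170 bp wide over the whole gene (chr18:36722308-36728477) with folds of 15.2 and 7.36, and the summits lay 19 bp apart. Ly96, which encodes the lipopolysaccharide-binding partner of TLR4, had folds of 11.2 and 8.03 at a region whose summit lay 22 bp before a TSS.

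The cytosolic sensors of the NOD-like and DNA class all had at least 1 consensus region, and 4 of 6 had a promoter peak in both libraries. Nlrp3, the inflammasome sensor of membrane damage and ion flux, had the highest region of the whole list. It spanned chr11:59539859-59546239, 6381 bp, with folds of 22.1 and 15.4 and summits 52 bp apart. The summit of replicate 1 lay 14 bp after the TSS. Among the 9801 genes with a region, the lower fold of Nlrp3 stood at percentile 99.3. A further region in an intron of Nlrp3 was higher in replicate 2, with folds of 7.83 and 10.

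Nlrc4, the inflammasome partner of the NAIP proteins that bind flagellin, had a promoter region with folds of 12.9 and 9.37 and its summit 6 bp after a TSS. Nlrp1b, a protease-activated inflammasome sensor, had its promoter region at 9.64 and 5.02, and a higher one 20787 bp upstream at 11.7 and 5.67. Nlrp1b has close copies beside it, and whether reads shared between copies entered its values was not tested. Aim2, which binds double-stranded DNA in the cytosol, was the only gene of this class without a promoter peak in either library. It had 6 regions, all intronic in its long transcript, and the highest at chr1:173426401-173427737 was higher in replicate 2 (15.1) than in replicate 1 (11.4). That region lay 28780 bp upstream of the nearer of its 2 TSSs, and the highest summits of the libraries lay 966 bp apart within it.

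Nod1 and Nod2 detect fragments of peptidoglycan. Nod1 had low promoter peaks (5.33 in replicate 1 and 4.69 in replicate 2) and 7 regions, the highest 16847 bp inside the gene with folds of 9.39 and 9.04. Nod2 had 4 promoter peaks in replicate 1, up to 5.07, and none in replicate 2, whose nearest peak lay 1169 bp from the TSS. Its 3 regions were intronic, with the highest by the lower fold at 6.34 and 5.96. Another had folds of 12.9 and 4.32. In both genes the highest occupancy thus lay inside the gene and not at the start.

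The RIG-I-like sensors were low. Ddx58, which encodes RIG-I, had a promoter peak of 4.73 in replicate 1 and of 5.02 in replicate 2, 1 upstream and 1 downstream of the TSS. Its 1 consensus region was intronic with folds of 4.57 and 4.69. Ifih1, which encodes MDA5, had a promoter region with folds of 5.07 and 6.02 and summits 105 bp apart.

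All 4 C-type lectin sensors had a promoter peak in both libraries and a consensus region there. Clec7a, which encodes the beta-glucan receptor Dectin-1, had a region 5906 bp wide at chr6:129469812-129475717 with folds of 10.3 and 12.4 and summits 19 bp apart, and 10 regions in all. Clec4d, which encodes the glycolipid receptor MCL, had a wide region starting upstream of the gene with folds of 16.0 and 8.70. Within 1 kb of its TSS, however, the highest peak of replicate 2 was 5.02, and the higher summit lay 1653 bp upstream. Clec4n, which encodes the mannan receptor Dectin-2, reached 12.3 and 6.48 in a region centered 2005 bp upstream. Clec4e, which encodes the mycobacterial glycolipid receptor Mincle, had folds of 7.88 and 6.27 at its promoter. The last 3 genes are neighbors on chromosome 6, and each had regions of its own.

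Among the TLR adaptors, Myd88, which serves most TLRs, had the highest region, at chr9:119339987-119341496 with folds of 12.9 and 7.70. Its highest summits in the 2 libraries lay about 1 kb apart, and the region also reached the promoter of Acaa1a, whose TSS was nearer to its middle. The summit of replicate 1, with the fold of 12.9, lay 1090 bp before the TSS of Myd88 and so beyond 1 kb. That of replicate 2 lay 88 bp before it. A separate replicate 1 peak at the Myd88 promoter had a fold of 5.58. Ticam1, which encodes TRIF, had folds of 10.1 and 5.02 just upstream of its TSS. Ticam2, which encodes the bridging adaptor TRAM, had a promoter region at 4.82 and 5.02 and its highest region downstream of the gene at 6.85 and 6.02. Tirap, which brings MyD88 to the membrane, had 3 promoter peaks in replicate 1, up to 4.06, and none in replicate 2.

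Of the kinases and ubiquitin ligases, Irak2 stood out from the others by height and number. It had 15 regions, 14 of them intronic, and the highest had folds of 15.5 and 12.4 with summits 60 bp apart. Its promoter region was lower, at 7.10 and 5.69, and for 8 of the 15 regions the nearest TSS was that of Tatdn2. Irak4, the kinase that starts the IRAK cascade, had 1 region with folds of 5.84 and 7.03, which overlapped the promoter of Pus7l as well. Irak3, an inhibitory member of the family, had 3 promoter peaks in replicate 1, up to 6.09, and none in replicate 2. It had 3 regions inside or beyond the gene, the highest by the lower fold at 4.31 and 5.02. Another had folds of 8.12 and 4.29. Traf3 and Traf6, the ubiquitin ligases downstream, had promoter regions of 6.34 and 5.02 and of 4.53 and 4.69, and that of Traf3 overlapped the gene 4930595D18Rik.

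In the cytosolic pathways, Ripk2, the kinase of NOD1 and NOD2, had 5 regions, the highest 4049 bp inside the gene with folds of 8.0 and 8.70 and summits 681 bp apart. Pycard, which encodes the inflammasome adaptor ASC, had 2 promoter peaks in replicate 1, up to 4.06, and no peak of replicate 2 within 2621 bp of its TSS. Mavs, the adaptor of RIG-I and MDA5, had a promoter region with folds of 5.07 and 4.35. A further region at its promoter had the same lower fold, with 7.61 in replicate 1 and 4.35 in replicate 2.

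Syk, the kinase that couples the C-type lectins to CARD9, had 25 regions, the most of any listed gene, in a gene of 65.6 kb. The folds ran from 2.02 to 17.8 in replicate 1 and from 3.20 to 9.71 in replicate 2. The highest by the lower fold lay 39425 bp from the TSS at chr13:52635659-52636898, with folds of 9.91 and 9.71 and summits 8 bp apart. A region 10616 bp upstream had the highest fold in replicate 1, 17.8, and 8.37 in replicate 2. Card9 had a promoter region of 5.58 and 5.0 and a higher one, 8.12 and 7.73, at the end of the gene by the TSS of Dnlz. In replicate 1 its promoter also held a peak with a fold of 9.13, which no peak of replicate 2 overlapped.

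**Figure D3:**
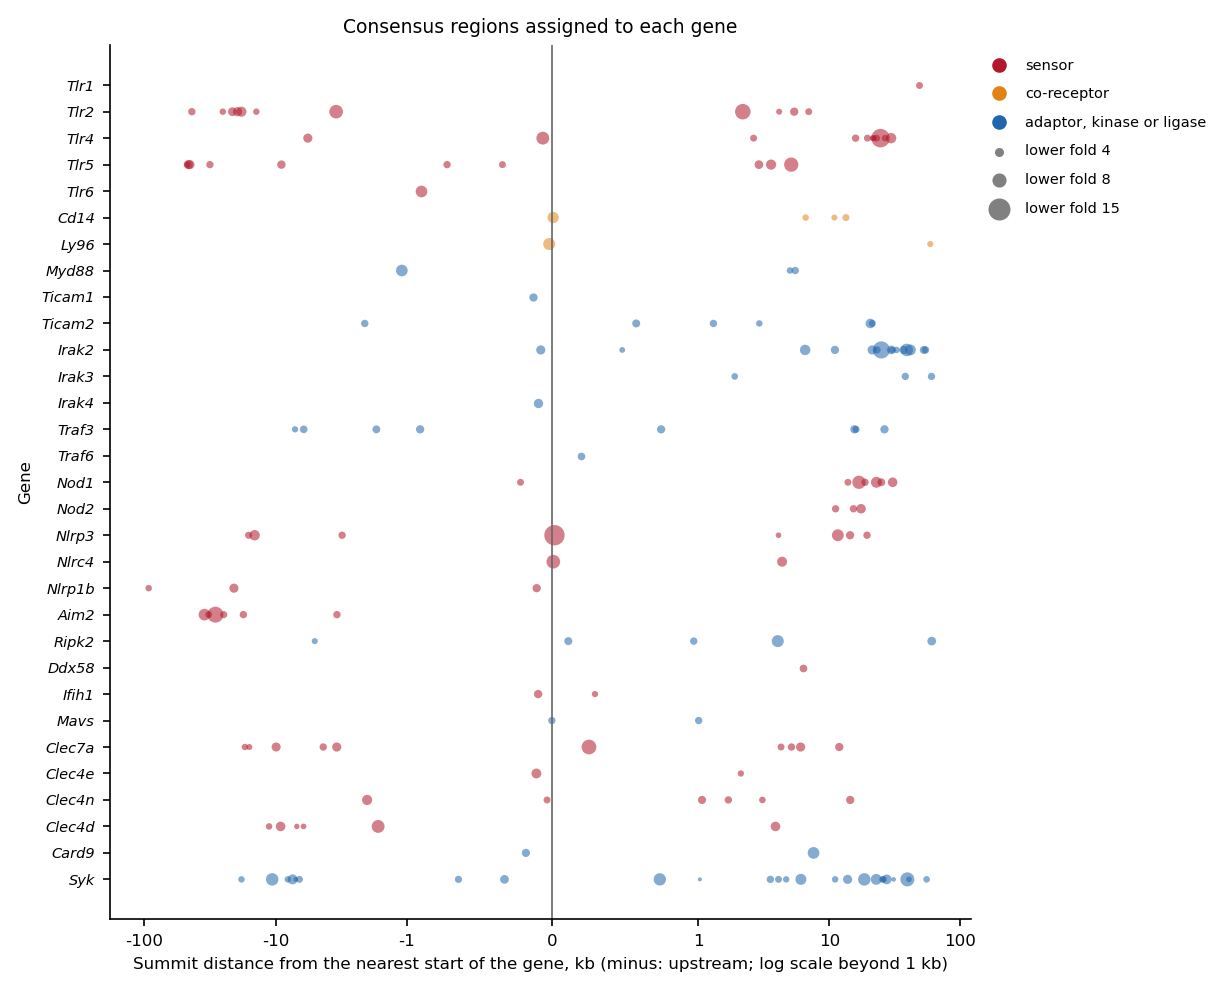
Distance of each of the 168 summits from the nearest TSS of its gene in kb (horizontal axis, linear within 1 kb and logarithmic beyond), 1 row per gene with a region; circle area grows with the lower fold of the region. Nlrp3, Nlrc4, Cd14, Ly96 and Clec7a carry their largest circle at the TSS, whereas Tlr4, Irak2, Nod1, Aim2 and Syk carry theirs more than 10 kb away.

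By role, sensors and adaptors had similar shares of genes with a peak or region, and the median height was larger in the sensors. A promoter peak in both libraries was present at 14 of 21 sensors (66.7%) and 11 of 14 adaptors (78.6%), beside 35.8% of all genes. Any consensus region was assigned to 17 (81.0%) and 12 (85.7%), beside 45.0% of all genes. The median lower fold of the strongest region was 8.70 over the 17 sensors and 5.93 over the 12 adaptors, beside 5.84 over all genes with a region. The ranges overlapped, from 4.02 to 15.4 in the sensors and from 4.31 to 12.4 in the adaptors, and the difference was not tested. Within the sensors, the medians by class were 9.89 for 5 TLRs, 9.20 for the 6 NOD-like and DNA sensors, 7.59 for the 4 lectins and 4.82 for the 2 RIG-I-like sensors.

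**Figure D4:**
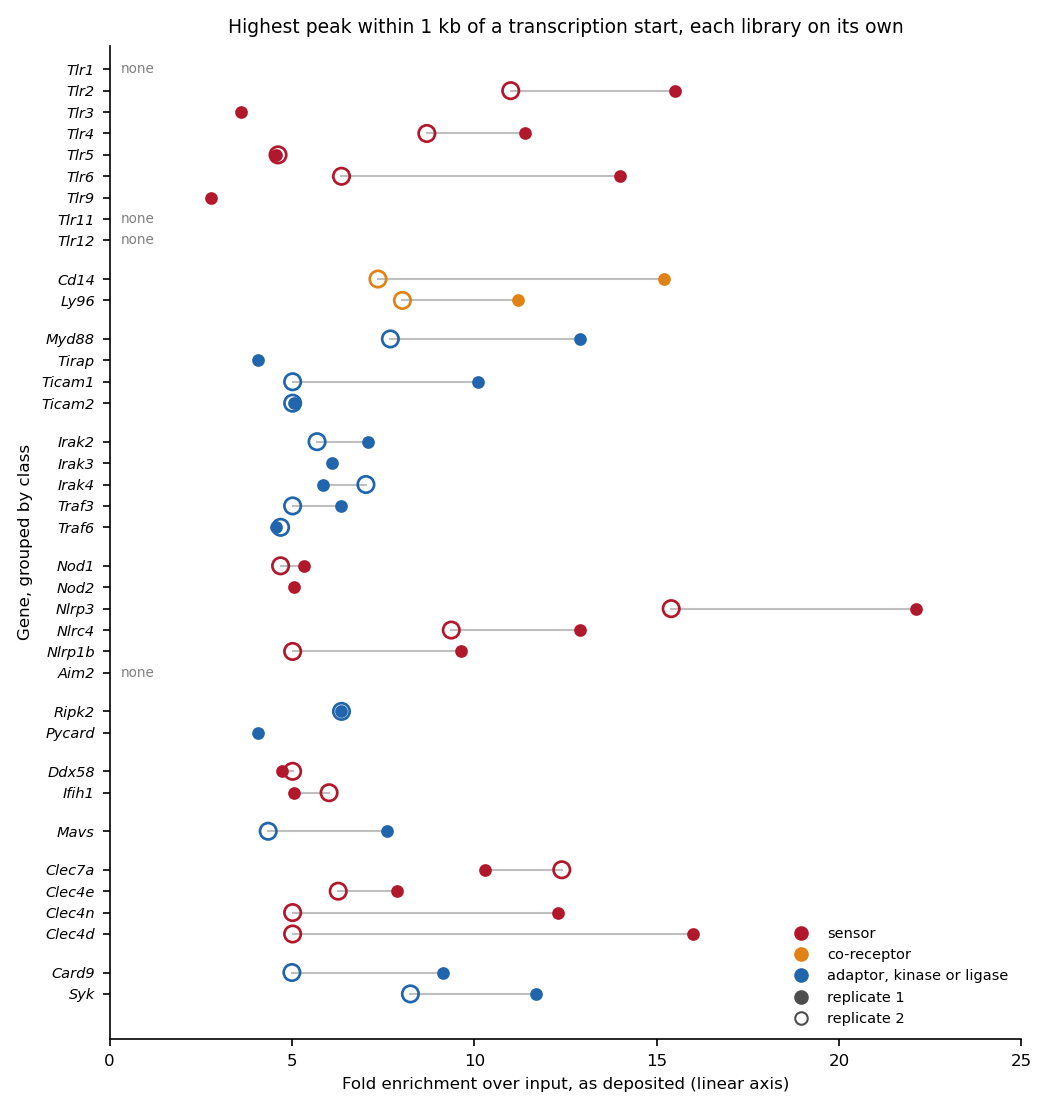
Deposited fold enrichment over input (horizontal axis, linear) of the highest peak within 1 kb of a TSS, taken in each library on its own, for the 37 genes by class; filled circles are replicate 1 and larger open circles replicate 2. The 6 genes with a filled circle alone (Tlr3, Tlr9, Tirap, Irak3, Nod2 and Pycard) lie between 2.79 and 6.09.

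The 6 genes with a promoter peak in replicate 1 alone made up 16.2% of the list, beside 10.3% of all genes. Their highest promoter peaks had folds between 2.79 and 6.09, and the median fold of all peaks in that library was 4.06. Replicate 1 had more peaks in all than replicate 2 (106228 and 47224), and the part of this difference in the single-library calls was not tested. The 1 kb limit decided few genes. For each gene the peak nearest to a TSS was taken. The largest of these distances within the limit were 488 bp at Ticam2 and 366 bp at Ddx58 in replicate 2. In replicate 1 they were 280 bp at Traf3 and 262 bp at Tlr5. The smallest beyond the limit were 1169 bp at Nod2 and 1859 bp at Irak3 in replicate 2, and 3335 bp at Aim2 in replicate 1.

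Across the regions, the RBPJ core TGGGAA was found within 100 bp of the summit in 42 of the 168 (25%) and in 18.8% of all 25454 consensus regions. It was present at the strongest region of 9 of the 31 genes (Tlr1, Tlr2, Tlr4, Myd88, Traf6, Ripk2, Ddx58, Clec4d and Syk), and 18 genes had it in at least 1 region. Neither count has a share over all genes beside it, and a gene with more regions offers more windows for a match. At the highest region of the list, that of Nlrp3, and in all other regions of that gene no core was found. The long RBPJ site was found in 1 of the 168 regions (0.595%) and in 1.14% of all. GAGGAAGT was found in 7.14% of the 168 and 6.53% of all, TGANTCA in 7.74% and 9.3%, GAAANNGAA in 6.55% and 7.77%, and the NF-kB site in 3.57% and 2.61%. In 2 of the 168 regions a core overlapped an NF-kB site, 1 of them 5029 bp upstream of Ripk2. These shares describe the windows and carry no test, and a window without a match says only that these letters were not in it.

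Markers of other cells were looked at in the same way. Of 10 marker genes of AMs, 8 had a promoter peak in both libraries beside 35.8% of all genes. Of 5 neutrophil markers 1 had such a peak, and of 5 lymphocyte, 3 alveolar type II cell and 2 monocyte markers none had. By any assignment of a consensus region, all 10 AM markers, both monocyte markers, 3 neutrophil markers, 2 lymphocyte markers and no type II cell marker had one, beside 45.0% of all genes. Among a further 44 genes of the same pathways, 28 had a promoter peak in both libraries (63.6%, beside 35.8% of all genes), 7 in replicate 1 only, 1 in replicate 2 only and 8 in neither. The 3 with the highest lower fold were Tnfaip3, which encodes the NF-kB inhibitor A20, at 15.2 and 13.1, and Ly86 at 11.2 and 11.0 and Mrc1 at 16.2 and 11.0, which encode a partner of the TLR homolog CD180 and the mannose receptor. Of the NOD-like family in this set, Nlrp6, Nlrp12, Nlrc3 and Nlrc5 had no promoter peak, Naip5 and Naip6 had one in replicate 1 only, and Nlrx1 (12.2 and 7.36) and Naip2 (12.4 and 7.70) had high ones in both libraries. The Naip genes lie close together on chromosome 13, and whether sequence shared between them affected these values was not tested.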

How the data were processed

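RBPJ and input libraries of sorted AMs were sequenced by the authors. The submitters' notes and the methods name bcl2fastq (2.20.0.422) and CASAVA for demultiplexing, cutadapt for trimming, Bowtie2 for alignment to mm10, SAMtools for filtering and MACS3 for peak calling. Each library was called on its own against input, at q below 0.05. The deposited lists hold a display score, which was not used, the fold enrichment at the summit (a ratio), and the −log10 p and −log10 q. Fold and −log10 q were taken as the authors computed them. The paper provides sequencing quality data, but read depth was not used here. No value therefore carries a counting interval, and 2 libraries limit the precision.

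Peaks of both lists that overlapped by at least 1 bp were merged, and merged regions with a peak of each library formed the consensus. Gene models were the basic transcripts of GENCODE M21 (GRCm38), with 21755 protein-coding genes and Clec7a, which that release types as a polymorphic pseudogene. Every listed gene was named. The members and lists were chosen with earlier results of these data known. The counting of promoters was tested on simulated data. Motifs were searched up to 100 bp from the summit in whichever library had the higher fold. Sequences overlapping untranslated exons were not printed. Counts and folds were recomputed under 12 other settings, each for the results it touches, and 2 more were added after the data were seen. Calculations used Python 3.11.15, numpy 2.4.6, pandas 2.3.3 and matplotlib 3.10.9.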

Additional observations from a re-analysis of the deposited data

How the results depend on the processing

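Counts of the listed genes kept within 1.5 times the values given under every alternative but 1. When the summits of the libraries had to lie within 100 bp of each other, 16 genes and not 26 had a consensus region at the promoter (22.6% of all genes under the same rule), and those lost were Card9, Ifih1, Irak2, Mavs, Nlrp1b, Syk, Tlr2, Tlr5, Tlr6 and Traf6. With peaks of a −log10 q of at least 5, 23 genes had a promoter peak in both libraries (24.9% of all genes). With promoters of 3 kb either side the count was 30 (39.3% of all genes), with 500 bp it was 27 (32.7%), and with all transcripts it was 28 (37.4%), Aim2 being the gene gained. Counting only promoter regions nearest to the gene itself, an alternative chosen after seeing the data, gave 25 (30.2% of all genes), without Myd88. Leaving promoter regions out of the gene body count, also chosen after seeing the data, gave 20 and not 29 (17.0% of all genes). Using either library alone gave 27 to 33 genes with a promoter peak and 27 to 33 with a region there (37.5% to 46.1% of all genes). It gave 32 to 34 in the gene body (44.2% to 51.9%), 34 to 35 by nearest TSS (54.1% to 59.6%) and 34 to 35 by any assignment (58.4% to 62.9%). The shares over all genes thus rose too, and 14 to 17 sensors and 11 to 14 adaptors had a promoter peak. When regions had to lie within 20 kb of a TSS, the median lower fold of the strongest region was 7.03. Under that limit the lower fold moved at 6 genes, among them Aim2 from 11.4 to 4.35, Irak2 from 12.4 to 6.69 and Tlr4 from 13.7 to 8.70, and 3 genes and not 6 reached a fold of 10 (Nlrp3, Tlr2 and Clec7a). No paired analysis was possible because the counts come from no test. The depth of the libraries was not used here, and a gene without a peak may be below detection.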
